A study of Homo sapiens with 2 samples.

Results

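Classical cadherins, atypical cadherins and the protocadherins that lie outside the large protocadherin gene clusters were examined for OTX2-bound DNA in D283 tumorspheres. The members were all protein-coding genes of chromosomes 1 to 22 whose symbol is CDH or PCDH followed by digits only, which gave 33 of 18971 genes, 23 of them CDH and 10 PCDH. The D283 line was established from a medulloblastoma, and its tumorspheres were labelled as OTX2-expressing controls with no treatment, grown in ultra low-attachment plates in medium with N2, B27, EGF and bFGF. The study also uses the OTX2-high name for scramble siRNA controls, and whether these spheres carried such an siRNA is not given in the sources used here. The samples were 1 OTX2 ChIP library, made with an antibody to this transcription factor, and 1 input library of the same chromatin without antibody. There was no replicate, no second cell line and no OTX2 knockdown (KD) library, so values carry no replicate error and conditions could not be tested against each other. RNA was not measured in these samples, so neither the cell line's identity nor the activity of any cadherin gene could be checked here. The ChIP library kept 61259377 fragments after duplicate removal and the input library 22521186, and the peak list held 137412 peaks on GRCh38.

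Cadherins are calcium-dependent adhesion proteins of the cell surface. Type I cadherins such as CDH1 (E-cadherin) and CDH2 (N-cadherin) hold cells together in adherens junctions, where their cytoplasmic tails bind catenins that connect to actin. Type II cadherins are close relatives, many of them expressed in subsets of neurons, where they take part in cell sorting and synapse formation. Non-clustered protocadherins have a cadherin-like outer part but a different tail, mediate weaker adhesion and are prominent in the developing nervous system. OTX2 is a homeodomain transcription factor that takes part in patterning the forebrain, midbrain and rostral hindbrain. It is also expressed in progenitors of the developing cerebellum, and it is overexpressed in Group 3 and Group 4 medulloblastoma. The comparison asks whether this family, whose genes are often very long, carries OTX2 peaks at the transcription start site (TSS) or inside the gene more or less often than other genes of the same length.

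The promoters of CDH10, PCDH8 and PCDH9 are shown because they lie under the strongest OTX2 peaks found over a promoter of the family (CDH10 and PCDH8) or belong to the member with the most peaks in its record (PCDH9). In each of them a peak covered the whole window of 250 bases before to 50 bases after the RefSeq start (GRCh38.p14). They are given 5′ to 3′ on the gene's strand, and capitals mark a TAATCC or TAATCT motif on either strand, TAATCC appearing as GGATTA when it lies on the opposite strand. The positions are chr5:24644929-24645228 for CDH10, chr13:52848591-52848890 for PCDH8 and chr13:67230287-67230586 for PCDH9, all on the minus strand.
CDH10: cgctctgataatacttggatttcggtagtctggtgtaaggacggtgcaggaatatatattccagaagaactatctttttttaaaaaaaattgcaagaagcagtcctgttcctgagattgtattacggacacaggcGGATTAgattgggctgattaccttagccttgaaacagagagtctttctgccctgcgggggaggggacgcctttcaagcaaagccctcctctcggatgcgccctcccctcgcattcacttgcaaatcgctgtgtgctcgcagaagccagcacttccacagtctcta
PCDH8: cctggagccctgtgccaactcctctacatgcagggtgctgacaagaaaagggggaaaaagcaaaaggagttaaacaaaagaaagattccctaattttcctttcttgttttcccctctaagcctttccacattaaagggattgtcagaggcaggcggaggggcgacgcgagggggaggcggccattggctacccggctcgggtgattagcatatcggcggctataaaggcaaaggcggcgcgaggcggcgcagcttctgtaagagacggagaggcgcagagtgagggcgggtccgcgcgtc
PCDH9: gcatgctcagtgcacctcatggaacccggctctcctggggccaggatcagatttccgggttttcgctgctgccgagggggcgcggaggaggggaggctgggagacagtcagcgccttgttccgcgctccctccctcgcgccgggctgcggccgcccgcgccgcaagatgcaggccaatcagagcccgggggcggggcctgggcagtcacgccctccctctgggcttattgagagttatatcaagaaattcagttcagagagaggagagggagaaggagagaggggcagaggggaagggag
The CDH10 promoter held 1 motif, a TAATCC on the opposite strand, at -112 bp from the RefSeq start and 2 bp from the peak summit. The PCDH8 and PCDH9 promoters held no match to either motif in these 300 bases. A TAATCC or TAATCT was present in 10.6% of 20468 protein-coding promoters of this length, in 12.0% of the 8073 with an OTX2 peak over the window and in 9.73% of the 12395 without one. Among promoters under a peak of at least 100 fragments the share was 29.9% (324 of 1082), and under lower peaks it was 9.23% (645 of 6991). Where a motif and a peak were both present, 294 of 969 promoters (30.3%) had a motif within 10 bp of a summit. Of the 33 members, 20 had a RefSeq promoter in the table used, with 32 windows in all. A peak lay over a promoter of 7 of them (CDH8, CDH10, CDH19, PCDH7, PCDH8, PCDH9 and PCDH15). These were 7 of the 32 windows (21.9%), against 39.4% of the 20468 protein-coding promoters. A motif was present in 6 of the 32 windows, of which only the CDH10 window also had a peak. For PCDH15 the covered promoter was that of an internal start, at chr10:54801182-54801481, under a peak of 95 fragments and a fold enrichment of 11.8. This start is the TSS of the canonical transcript of PCDH15 and not the 5′ end of its gene record. For CDH8 the covered promoter, at chr16:62035137-62035436, was not that of the canonical transcript. The window at the canonical TSS of CDH8, chr16:62036389-62036688, had no peak over it.

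Near the TSS, cadherins and protocadherins carried OTX2 peaks about as often as other genes, but the peaks were mostly weak. A gene was counted when a peak reached by 1 bp or more into the window of −5 kb to +2 kb around its TSS, taken as the 5′ end of the GENCODE record. This held for 22 of the 33 members (66.7%, Wilson 95% interval 49.6% to 80.2%), against 58.5% of all protein-coding genes. For each member the 100 other protein-coding genes nearest in length were taken as a comparison, and a mean of 62.4% of them had a peak (45% to 75% depending on the member). The share in genes of like length, 4.27 percentage points lower, lay inside the interval of the members' share. The order turned when only peaks with a fold enrichment of at least 5 over the local input were counted. Such a peak was found at 8 members (24.2%, interval 12.8% to 41.0%), against 39.5% of all protein-coding genes, which lies inside this interval, and 42.5% of genes of like length, which lies just above it. These Wilson intervals, here and below, treat genes as independent draws, which the members of a family are not. They carry no replicate error, and a share inside or outside them is a description and no test.

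Median height and fold enrichment near the TSS were also lower than over all protein-coding genes. Genes of like length were not used for these comparisons. The height of a peak is the number of ChIP fragments over its summit. The 32 peaks in the members' windows had a median height of 31.5 fragments (range 18 to 272), against 46 fragments for the 14814 peaks in the windows of all protein-coding genes. A height of 100 fragments was reached by 3 of the 32 (9.38%), against 14.1% of all window peaks, and these 3 lay at CDH10 and PCDH8. With so few peaks these shares are not read as different. The best fold enrichment of a member with a peak had a median of 4.18, against 6.39 over the 11104 protein-coding genes with one, and 16 of the 22 members fell below the latter value. The summits of 16 of the 32 peaks lay within 1 kb of the TSS, 20 lay upstream and 12 downstream. For 31 of them the member's own TSS was the nearest protein-coding TSS. The exception was the CDH16 peak, which lay nearer to RRAD.

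**Figure D1:**
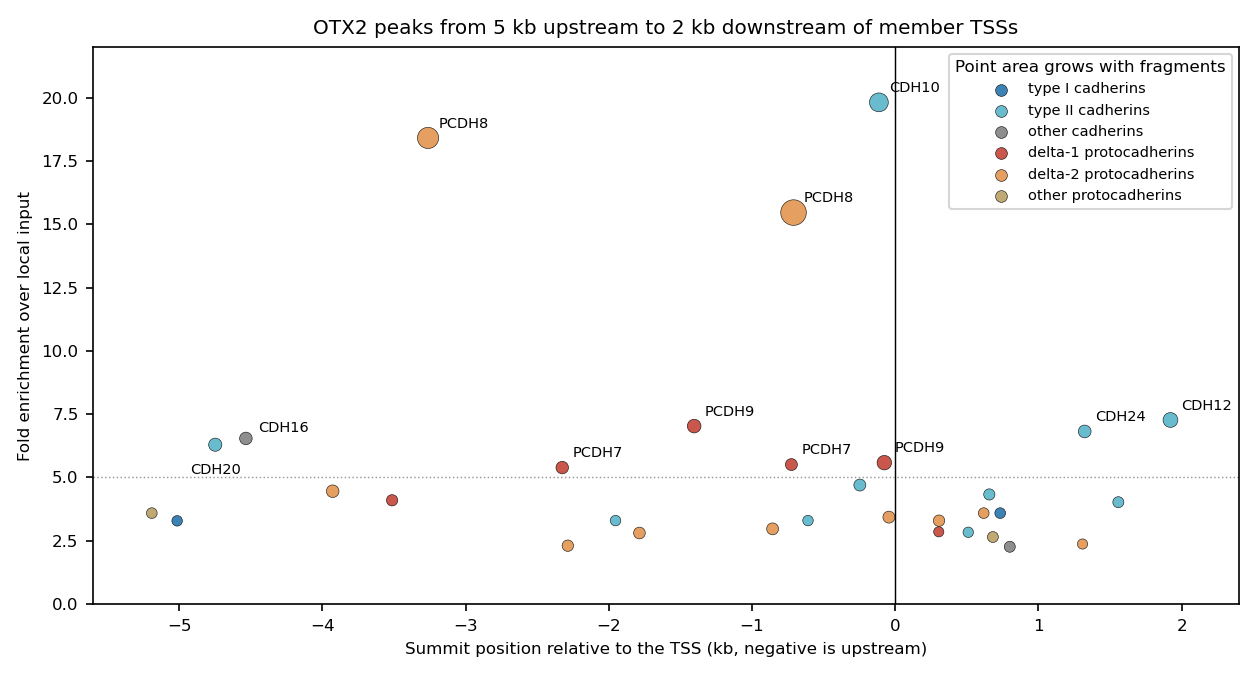
Each point is 1 OTX2 peak overlapping the window around a member's TSS, with the summit position in kb on the horizontal axis, the fold enrichment on the vertical axis, area growing with the number of fragments and color giving the class of the gene. The CDH10 peak (19.8) and 2 PCDH8 peaks (18.4 and 15.5) stand apart from the remaining 29, none of which exceeds 7.27.

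CDH10, a type II cadherin of the brain, had the highest fold enrichment near a TSS in the family. The gene (chromosome 5, 24487100 to 24644978, minus strand) had a peak at chr5:24644861-24645446 whose summit was 114 bp upstream. The peak held 133 fragments (exact Poisson 95% interval 111 to 158) at 19.8 times the local input (−log10 q 93.8), and it was taller than 84.9% of all peaks. PCDH8, a delta-2 protocadherin that in neurons takes part in the removal of N-cadherin from synapses, is the shortest member (chromosome 13, 52842889 to 52848641, minus strand). It had 3 peaks in its window. The tallest, at chr13:52848527-52850133, held 272 fragments (241 to 306) at a fold enrichment of 15.5 with its summit 710 bp upstream, and it ran over the promoter shown above. The local input under it was 12.0 on the pileup scale, against a median of 4.52 under the peaks inside member genes. A second, at chr13:52851466-52852311, held 176 fragments (151 to 204) at a fold enrichment of 18.4, and its summit lay 3262 bp upstream. The third had a fold enrichment of 2.31 and 30 fragments.

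The next members by fold enrichment near the 5′ end of the gene record were far below these. CDH12, a type II cadherin like CDH10, had a peak of 71 fragments (55.4 to 89.6) at a fold enrichment of 7.27 with its summit 1922 bp inside the gene. PCDH9, a delta-1 protocadherin, had 2 peaks, 1 of 56 fragments and fold enrichment 7.03 at 1404 bp upstream and 1 of 67 fragments and fold enrichment 5.58 at 76 bp upstream. CDH24, a type II cadherin of only 10.5 kb, had a peak of 45 fragments (32.8 to 60.2) at a fold enrichment of 6.82 at 1323 bp inside intron 1. CDH16, a cadherin of the kidney, CDH20 (type II) and PCDH7 (delta-1) completed the 8 members above a fold enrichment of 5, with best values of 6.54, 6.29 and 5.51. Neighbors in this order of 6 genes had overlapping counting intervals of their fragments, so adjacent places are not resolved at this depth.

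The classes hold few genes each, differences between them were not tested, and their counts are to be read against the 58.5% of all protein-coding genes with a peak. Among type I cadherins 2 of 5 had a peak and none had one with a fold enrichment of 5 or more. CDH1 and CDH3 (P-cadherin), neighbors on chromosome 16, had peaks of 21 and 23 fragments with fold enrichments of 3.29 and 3.59, while CDH2, CDH4 (R-cadherin) and CDH15 (M-cadherin of muscle) had none. The summit of the CDH1 peak lay 5014 bp upstream, just beyond the window that the peak overlapped. Among type II cadherins 9 of 13 had a peak and 4 had one with a fold enrichment of at least 5. Beside CDH10, CDH12, CDH20 and CDH24, the best values were 4.70 at CDH19, 4.33 at CDH11, 4.02 at CDH8, 3.30 at CDH5 (VE-cadherin of endothelium) and 2.84 at CDH6. The CDH11 value is for the 5′ end of its record. The window of its canonical TSS held 3 peaks, the best with a fold enrichment of 5.21. CDH7, CDH9, CDH18 and CDH22 had no peak in the window. Of the other cadherins, CDH16 and CDH17 had a peak, and CDH13 (T-cadherin, held in the membrane by a lipid anchor), CDH23 (a part of the tip links of hair cells) and CDH26 had none. The CDH17 peak had the lowest best value in the family, with a fold enrichment of 2.26. All 3 delta-1 protocadherins (PCDH1, PCDH7 and PCDH9) and all 4 delta-2 protocadherins (PCDH8, PCDH10, PCDH17 and PCDH18) had a peak. Outside PCDH8, the best delta-2 values were 4.46 at PCDH17, 3.59 at PCDH18 and 3.43 at PCDH10. Of the 3 remaining protocadherins, PCDH12 (expressed in endothelium) reached 2.65 and PCDH15, the tip link partner of CDH23, 3.59, and PCDH20 had no peak. The PCDH15 value is for the 5′ end of its record, and the peak over its canonical TSS had a fold enrichment of 11.8. In all, 9 of 10 protocadherins and 13 of 23 cadherins had a peak, and a fold enrichment of at least 5 was reached by 3 protocadherins and 5 cadherins. Where −log10 q had to be at least 5, a peak was left at 5 of 10 protocadherins and 8 of 23 cadherins, against 53.4% of all protein-coding genes.

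Inside the gene records, OTX2 peaks were fewer per length than in genes of similar size, and the gap was widest in the longest genes. The members had a median length of 135 kb (5.75 kb to 1825 kb), against 28.0 kb for all protein-coding genes. At least 1 peak lay in the record of 28 of 33 members (84.8%, Wilson 95% interval 69.1% to 93.3%), against 70.7% of all protein-coding genes and 87% of genes of like length. Of the 18 members of 100 kb or more, 17 had one, against 96.7% of the 3485 protein-coding genes of that length. The members' records held 322 peaks in 10.3 Mb, or 31.3 peaks per Mb (Poisson 95% interval 28.0 to 34.9). This interval covers counting error only and not the spread between members, so it does not give the uncertainty of a family density. The same pooled density was 52.7 over the genes of like length and 60.2 over all other protein-coding genes. Taken gene by gene the gap was narrower. The median was 44.3 peaks per Mb over the members (0 to 221), against 52.2 over genes of like length and 48.8 over all protein-coding genes. A total of 12 members lay above the median of their own 100 genes and 19 lay below it.

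By length, the pooled densities of members and other genes lay farther apart in the groups of longer genes. No interval was computed for these length groups and they were not tested, and the longest holds only 4 members. In the 15 members under 100 kb, 36 peaks gave 53.5 per Mb, against 64.9 in other genes under 100 kb, while the median of these members (54.8) was above that of the others (45.7). In the 14 members from 100 kb to 1 Mb, 192 peaks gave 43.5 per Mb, against 59.5. In the 4 members of 1 Mb or more, 94 peaks gave 18.1 per Mb, against 43.0 in the 63 other genes of that length. Without CDH4 the pooled density of the members was 33.5 per Mb, without CDH13 34.8, without both 37.6, without PCDH15 34.6 and without PCDH9 27.7. The Poisson interval lay wholly below the median of the genes of like length for 6 members (CDH4, CDH7, CDH9, CDH12, CDH13 and PCDH15) and wholly above it for 2 (PCDH8 and PCDH9), PCDH8 with a single peak where the median of like genes was 0. That peak was no longer counted when its summit had to lie in the record, when the TSS window was left out or when peaks of high local input were left out, and the PCDH8 density was then 0. Each interval covers counting error only. How many genes outside the family have an interval that misses their own median was not counted. The members named here are therefore not read as a trait of the family.

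**Figure D2:**
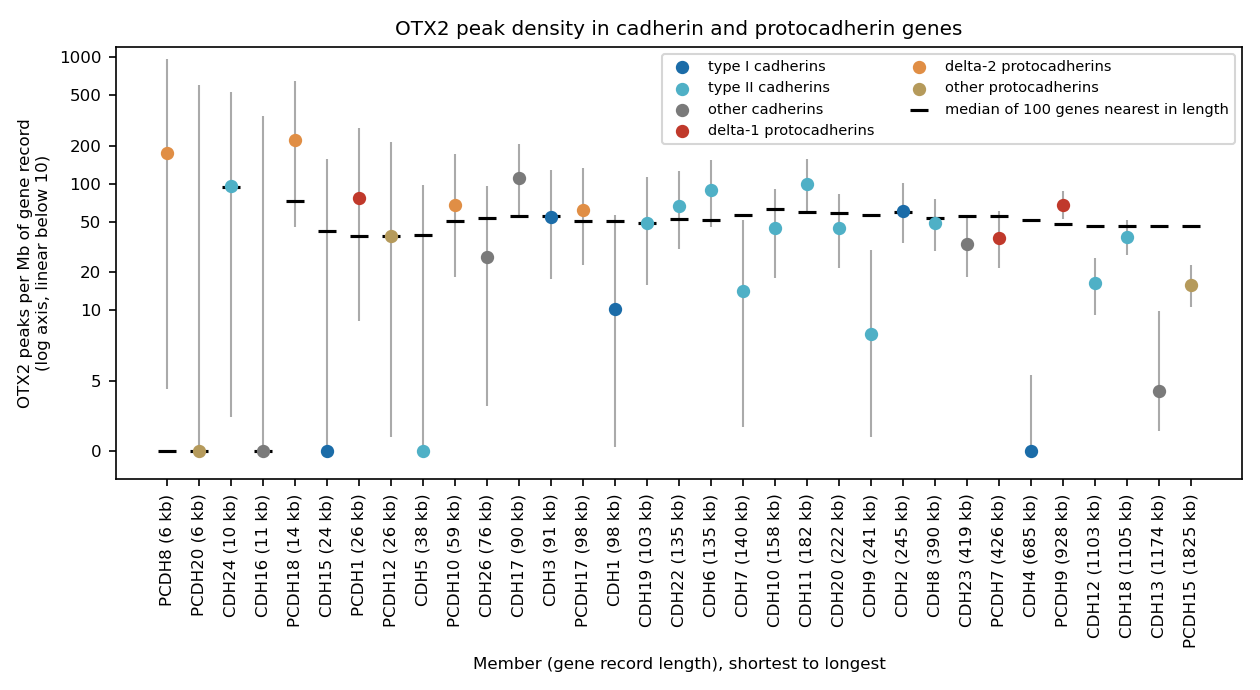
OTX2 peaks per Mb of gene record (vertical log axis, linear below 10) are shown for the 33 members from shortest to longest, colored by class, with Poisson 95% intervals as gray lines and the median of the 100 genes nearest in length as black dashes. A total of 12 points lie above their dash and 19 below, and CDH4 at 0, CDH13 at 4.26, PCDH15 at 15.9 and CDH12 at 16.3 lie below it and PCDH9 at 67.9 lies above.

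CDH4 had no OTX2 peak at all. This type I cadherin, expressed in the retina and brain, spans 685 kb of chromosome 20 (61252261 to 61937281, plus strand). A count of 0 allows a density of up to 4.38 per Mb if taken as 3 counts, and of up to 5.39 by the exact Poisson interval used for the other members, while the median of the 100 genes of like length was 51.5 and 1 of these 100 had no peak. Among 172 protein-coding genes at least as long as CDH4, 2 had no peak in the record, the other being PTPRN2 on chromosome 7, of 1049 kb. The stretch without a peak reached beyond the gene, from 60536725 to 62025900, a length of 1489 kb. Only 24 of 133963 stretches between neighboring peaks were at least as long, assembly gaps and centromeres included, and the median stretch was 8.55 kb. The CDH4 record had a GC content of 51.8%. Of 5 equal groups of protein-coding genes of 100 kb or more by GC content, the highest had 51 of 697 genes without a peak and the lowest 9 of 697, and the part of GC content in the CDH4 value was not tested.

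CDH13 came next in scarcity. In 1174 kb of chromosome 16 (82626965 to 83800640, plus strand) it held 5 peaks, or 4.26 per Mb (1.38 to 9.94), against 46.5 in genes of like length. Their heights were 24, 25, 34, 40 and 73 fragments, and all lay in introns 1 to 5. Of 67 protein-coding genes of 1 Mb or more, 3 had fewer peaks per Mb than CDH13. CDH9, a type II cadherin of hippocampal synapses, held 2 peaks in 241 kb (8.31 per Mb, 1.01 to 30.0). CDH1 held 1 peak in 98.2 kb (10.2 per Mb, 0.258 to 56.7), an interval that includes the median of like genes, 51.1. The other members with no peak in the record were short. CDH5 (38.1 kb), CDH15 (23.7 kb), CDH16 (10.8 kb) and PCDH20 (6.17 kb) belong to length groups in which 21, 24, 55 and 52 of 100 genes had none.

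The longest member, PCDH15, spans 1825 kb of chromosome 10 (53802771 to 55627942, minus strand) and held 29 peaks, 15.9 per Mb (10.6 to 22.8). Only 67 protein-coding genes reach 1 Mb, so the 100 genes of like length for members above 1 Mb include shorter genes. The match is loosest for PCDH15. CDH12 and CDH18 are both type II cadherins on the short arm of chromosome 5 and have nearly the same length, 1103 kb and 1105 kb. CDH12 held 18 peaks, or 16.3 per Mb (9.67 to 25.8), and CDH18 held 42, or 38.0 per Mb (27.4 to 51.4). The intervals of this pair did not overlap, and the interval of CDH18 included the median of 45.9 of genes of like length. PCDH9, by contrast, lay above genes of its length. In 928 kb of chromosome 13 (66302834 to 67230445, minus strand) it held 63 peaks, the most of any member, at 67.9 per Mb (52.2 to 86.9) against 47.7 in genes of like length, of which 19 of 100 were denser.

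At the other end, the 2 highest densities, of PCDH18 and PCDH8, rested on few peaks in short genes. PCDH18, a delta-2 protocadherin of 13.6 kb, held 3 peaks (221 per Mb, 45.6 to 646, and 86.4 without the TSS window), and PCDH8 was overlapped by 1 peak (174 per Mb, 4.40 to 968) whose summit lay outside the record. CDH17, the cadherin of liver and intestine, held 10 peaks in 90.1 kb (111 per Mb, 53.2 to 204). The local input was at least 7.89 on the pileup scale under each of them, against a median of 4.52 under the peaks inside member genes. Its flanks of 1 gene length were nearly as dense, with 88.7 summits per Mb against 99.8 in the record. Without peaks of high local input the CDH17 density was still 99.8 per Mb. The part of local input in this density was not tested. CDH11, a type II cadherin of mesenchymal cells, held 18 peaks in 182 kb (98.7 per Mb, 58.5 to 156), and 19 of its 100 genes of like length were denser. By class, pooled densities were 18.4 per Mb in type I cadherins, 36.6 in type II cadherins, 17.5 in other cadherins, 58.7 in delta-1, 79.5 in delta-2 and 16.2 in other protocadherins. These rest on 3 to 13 genes each. The median over the 4 delta-2 genes was 121 per Mb, and 52.3 without the TSS window, and that over the 3 delta-1 genes was 67.9 and 41.4.

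**Figure D3:**
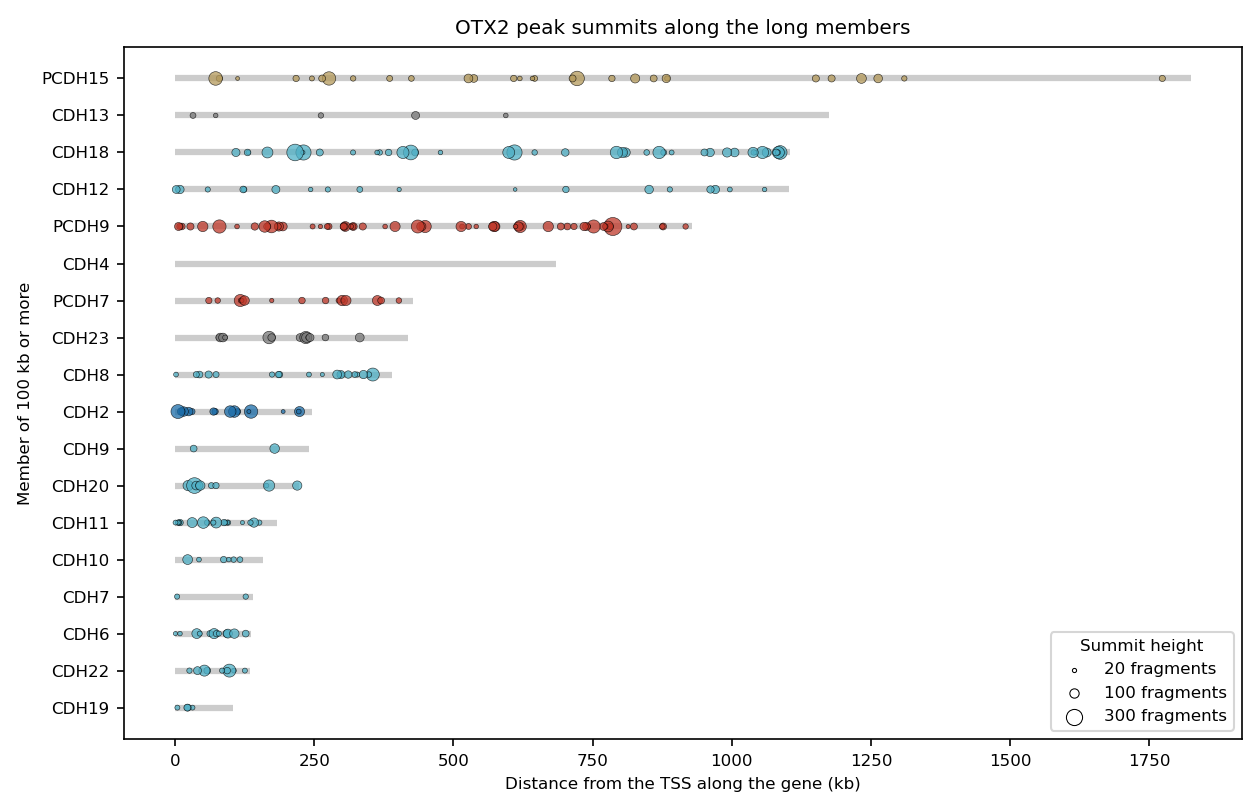
Summits of OTX2 peaks in the 18 members of 100 kb or more are placed by distance from the TSS along the gene (horizontal axis, kb), each gray bar being 1 gene record, with point area growing with the number of fragments at the summit and colors by class. Peaks run along most of the length of PCDH9 and CDH18, while the bar of CDH4 is empty and that of CDH13 holds 5 small points.

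The peaks inside the genes were similar in height to those of other genes, and few lay near the start. Their median height was 53 fragments (quartiles 32.2 to 95), against 53 (34 to 93) over the 73431 peaks in the records of all protein-coding genes, and the median fold enrichment was 6.65 against 6.01. Median peak length was 434 bp against 449 bp. Of the 322 peaks, 32 (9.94%) reached 162 fragments, as did 10.1% of the peaks in all records. Of the 316 summits inside the records, 291 (92.1%) lay more than 10 kb from the TSS. This share was not counted in other genes, and the member records are long (median 135 kb), so it is not read as a trait of the family. By the canonical transcript, 266 lay in introns, 64 of them in intron 1, 5 lay in exons and 45 outside that transcript.

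Peaks of at least 200 fragments were found in 7 members. In all, 15 of the 322 peaks (4.66%, against 6.13% of the peaks in all records) reached this height. Of the 15, 14 were more than 5 kb from the TSS, from 5.03 kb in CDH2 to over 1 Mb in CDH18. The share beyond 5 kb was not counted in other genes. The tallest, in PCDH9, lay 786 kb into the gene in intron 4 (chr13:66443698-66445048), with 376 fragments (339 to 416), 46.2 times the local input (−log10 q 360). It was taller than 99.8% of all peaks, while the peaks at the PCDH9 TSS held 56 and 67 fragments. CDH18, which had no peak near its TSS, held 5 of the 15, the tallest at chr5:20358919-20361016, 216 kb into the gene record and upstream of the canonical transcript, with 319 fragments (285 to 356) at a fold enrichment of 23.6. CDH20 held a peak of 284 fragments (252 to 319) with a fold enrichment of 26.9 in intron 1, 34.7 kb from the TSS (chr18:61367857-61368400), against 50 fragments in its window. PCDH15 held one of 243 fragments (213 to 276) with a fold enrichment of 36.0 (chr10:54905370-54906247). It lay 722 kb into the record and, as in CDH18, upstream of the canonical transcript.

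CDH2 also had no peak in the window but tall ones inside. N-cadherin is the main type I cadherin of neural progenitors and neurons. Its record (chromosome 18, 27932879 to 28177946, minus strand) held 15 peaks at 61.2 per Mb (34.3 to 101), close to the median of 59.8 of genes of like length. The tallest, at chr18:28172640-28173192, held 225 fragments (197 to 256) with a fold enrichment of 27.7 in intron 1, 5.03 kb from the TSS and so outside the window. A second, 136 kb into the gene, held 208 fragments with a fold enrichment of 26.0. CDH26, of 75.6 kb, had an equally tall peak of 225 fragments with a fold enrichment of 27.1, 53.3 kb from its TSS (chr20:60011089-60011890), and 1 further peak.

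The long members were also compared with their own surroundings, 1 gene length on each side. Of the 18 members of 100 kb or more, 11 held more summits per Mb than their flanks and 7 held fewer, with medians of 38.0 in the gene and 34.0 in the flanks. In the 3457 other genes of that length with both flanks the medians were 53.9 and 54.9, and 46.3% were denser than their flanks. CDH11 (98.7 against 41.1 per Mb), PCDH9 (66.8 against 36.6), CDH2 (61.2 against 34.7) and CDH8 (48.7 against 20.5) were denser than their flanks. CDH23 (33.4 against 81.1) and CDH13 (4.26 against 34.1) were sparser than their surroundings. Around CDH4 and CDH9 the flanks were poor in peaks too, with 8.76 and 4.16 summits per Mb.

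**Figure D4:**
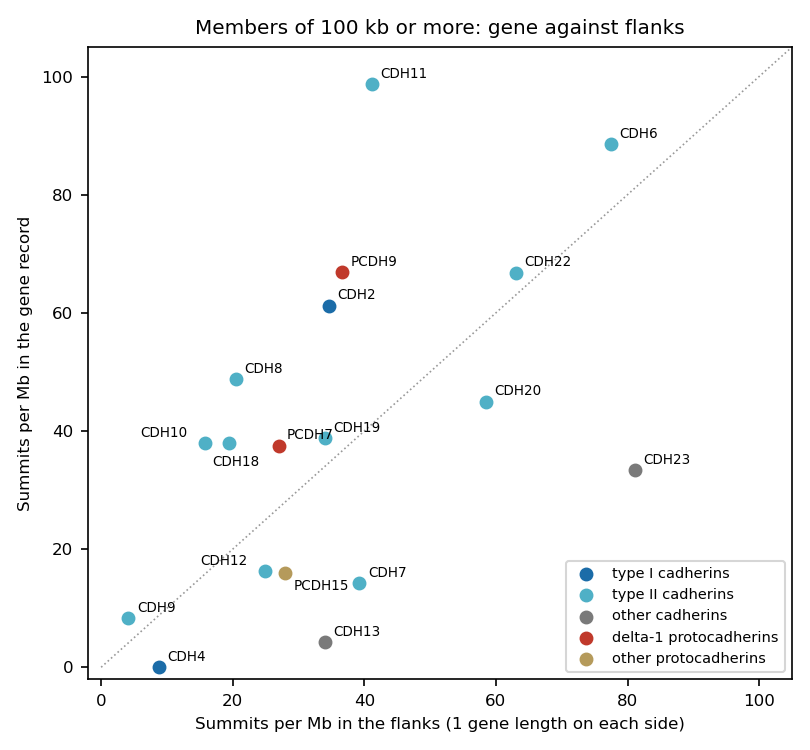
For the 18 members of 100 kb or more, OTX2 summits per Mb in the gene record (vertical axis) are plotted against those in the flanks of 1 gene length on each side (horizontal axis), with 1 point per gene colored by class and a dotted line of equal density. A total of 11 points lie above the line and 7 below, with CDH11 farthest above and CDH23 farthest below.

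Genes whose products work with the members were counted in the same way. Of 10 catenins and cadherin-binding proteins, 5 had a peak near the TSS and 3 had one with a fold enrichment of at least 5. CTNNA3 (alpha-T-catenin) had the strongest, of 225 fragments and a fold enrichment of 33.4 at 2433 bp upstream, and VCL (vinculin, which links alpha-catenin to actin) had one of 346 fragments and a fold enrichment of 23.2 at 86 bp upstream. Both fold enrichments exceeded the best near the TSS of any cadherin or protocadherin, 19.8, while in fragments CTNNA3 was below PCDH8 (272). The gene of beta-catenin, CTNNB1, had no peak in the window and 2 in its 65.4 kb record. Of 24 other genes of the cadherin superfamily (desmosomal, FAT, DCHS, CELSR, CDHR and calsyntenin genes), 11 had a peak and 4 had one with a fold enrichment of at least 5, led by CDHR1 (14.7, 112 fragments) and FAT4 (13.3, 100 fragments). These shares are read against 58.5% and 39.5% of all protein-coding genes. Pooled peak density was 33.5 per Mb in the catenin list and 56.3 in the superfamily list.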

How the data were processed

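Reads of 1 OTX2 ChIP and 1 input library were mapped by the authors to GRCh38 with Bowtie2 2.2.4, and peaks were called with MACS2 2.1.0.20140616 at a q-value cutoff of 0.05, keeping 1 fragment per position. Masking of ENCODE blacklist locations is described in the study's methods, and whether the deposited list is from before or after it was not settled here. Pileup, as deposited, is a signal: ChIP fragments over the summit, which MACS2 scaled toward the smaller library. Fold enrichment, as deposited, is the ratio of pileup plus 1 to local input plus 1. The −log10 q-value of each peak was also deposited and used as a threshold. Each ChIP fragment adds 0.735 to the pileup, and all heights were whole fragments within 0.02.

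GENCODE release 44 gene records were used at the GRCh38 positions recorded in the annotation, which 18971 of 19229 protein-coding records on chromosomes 1 to 22 carried. No coordinate was converted. Promoter sequences are from RefSeq (GRCh38.p14). GC content of gene records was computed on GRCh37. Counting recovered 200 of 200 planted genes in simulated peaks and matched a direct count for all 18971 genes. Python 3.11.15, numpy 2.4.6, pandas 2.3.3, scipy 1.17.1 and matplotlib 3.10.9 were used. The members, lists and rules were chosen with earlier results of these data known. All 33 members are accounted for, and full values are given for the 5 highest in fold enrichment near the TSS, the 4 with most and 4 with fewest peaks per Mb (5 with 0), the 4 longest and the 5 with the tallest peaks away from the TSS (2 tied). CTNNA3 and VCL follow the same rule, and other genes outside the family were named after their values were seen. Peak sequences were not analysed here because the genome FASTA was GRCh37.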

Additional observations from a re-analysis of the deposited data

How the results depend on the processing

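No paired analysis was possible because ChIP and input had 1 library each, and the smaller input library limits the precision of fold enrichments. The canonical TSS, the comparison within chromosomes, the pooled densities and the alternatives for class medians were added after seeing the data. The member share near the TSS was above that of genes of like length by 4.27 percentage points, and over 11 alternatives the difference ran from -18.3 to 6.97 and was above 0 in 5. The ratio of median densities, 0.850, stayed below 1 in all 9 alternatives run (0.676 to 0.898).

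Members with a peak near the TSS numbered 13 where −log10 q was at least 5, and 8 where fold enrichment was at least 5. The share of all protein-coding genes was 53.4% and 39.5% under these thresholds, 57.7% with the summit in the window, 57.3% without peaks of high local input (at least 3 times the floor of 3.98), 68.0% with any transcript TSS, 48.1% within 1 kb and 59.9% with the canonical TSS. The share in genes of like length was 42.5% where fold enrichment was at least 5 and 78.6% with any transcript TSS. A fold enrichment minimum of 5 also moved the median density to 21.1 per Mb in members and 31.2 in genes of like length, the pooled densities to 19.9 and 33.9, and the median height to 81 fragments in members. Class counts near the TSS also moved. Type I and II cadherins, 11 with a peak, had 7 where −log10 q was at least 5, 4 where fold enrichment was at least 5 and 6 within 1 kb. Other cadherins went from 2 to 1 under each of these, and protocadherins from 9 to 5 and 3 under both thresholds. The catenin and superfamily lists, 16 genes with a peak, had 7 with the fold enrichment minimum and 10 within 1 kb. Of 91 alternative values for groups of genes, these and no others, 26 in all, moved by more than the limits set. Values of single members are not among the 91. With the fold enrichment minimum of 5, the call near the TSS changed for 14 members and the density moved by over 1.5 times for 15. Where −log10 q was at least 5, these numbers were 9 and 5. With that fold minimum the density fell to 73.7 per Mb in PCDH18, 55.5 in CDH17 and 54.8 in CDH11. Any transcript TSS added CDH2, CDH22 and CDH23, and the canonical TSS removed CDH17 and PCDH12. At PCDH15 the canonical TSS lay under a peak of fold enrichment 11.8, against 3.59 near the 5′ end of the record.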

Other observations

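Of the 33 members, 8 lie on chromosome 16 and 7 on chromosome 5. The median density of other protein-coding genes of 100 kb or more was 39.5 peaks per Mb on chromosome 16, the lowest of the 9 chromosomes that hold members, and 60.8 on chromosome 5. CDH13 (4.26 per Mb) lies on the former, where CDH11 (98.7) and CDH8 (48.7) also lie, and CDH9 (8.31) and CDH12 (16.3) lie on the latter.

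GC content and peak density were set side by side in genes of 100 kb or more, as a description across genes, which share both libraries and are not replicates. Pearson's r was -0.0882 and Spearman's rho -0.0453 over 3485 genes, and -0.0454 and 0.0299 over the 18 members. In 5 equal groups by GC content the median density was 49.1, 58.1, 66.0, 60.3 and 39.5 peaks per Mb from the lowest to the highest, and 11 of the 18 members lie in the lowest group.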
